A study of Phragmites australis with 7 samples.

Results

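The cells described here are the 900 cells of common reed (Phragmites australis) shoots that carried the most RNA of 9 genes given as bundle sheath markers, 150 cells from each of 6 single-cell libraries. They are called the chosen cells below. The 6 matrices held 67194 cells, of which 54987 had at least 500 genes and 2000 UMIs (unique molecular identifiers, each standing for 1 captured RNA molecule). Each kept cell was scored by the sum, over the 9 genes, of the natural log of 1 plus its UMIs per 10000, and the 150 cells of highest score in each library were taken, so that 54087 other kept cells served as the comparison. The choice fixed both the number of cells and their high level of the 9 genes, and neither is a finding.

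The shoots came from 3 invasive plants of North America (NAint61, NAint113, NAint191) and 3 plants of the European population (EU60, EU78, EU620), untreated and grown together in a common garden, with 1 library per plant and the plant as the replicate. No age is given. Cell walls were digested with cellulase, macerozyme and pectinase, and free protoplasts were loaded for droplet capture of polyadenylated RNA. The libraries held 95335255 to 132478792 UMIs each, and the chosen cells of a library 1947496 to 3631055. The labels place NAint113, EU60 and EU78 in batch 1, NAint191 and EU620 in batch 2, and NAint61 alone in batch 3. An undigested frozen section of a NAint61 bud, with no replicate, was measured on a spatial array.

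A bundle sheath is the layer of cells that wraps a leaf vein. It controls what passes between the vein and the mesophyll, and its walls often carry lignin or suberin. In some of the grasses with a carbon-concentrating leaf it is where malate is decarboxylated by NADP malic enzyme. Lignin and many defence compounds are made by the phenylpropanoid pathway, in which phenylalanine ammonia-lyase (PAL) removes ammonia from phenylalanine, cinnamate 4-hydroxylase (C4H) adds a hydroxyl group to the cinnamate so formed, and 4-coumarate:CoA ligase (4CL) activates the product for the lignin and flavonoid branches. Gene symbols below are those of the best Arabidopsis match in the study's tables, so each role is known from Arabidopsis and not from reed.

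The score that admitted a cell was far from equal between libraries. A chosen cell scored at least 17.3 in NAint61, 26.4 in NAint113 and 13.8 in NAint191, against 27.7 in EU60, 29.4 in EU78 and 13.5 in EU620. The 3 libraries of batch 1 thus had the strictest entry, in both populations. The next cell below the limit scored 17.3, 26.4 and 13.7 in the 3 invasive libraries and 27.7, 29.4 and 13.4 in the 3 European ones, so no gap set the chosen cells apart from the rest in any library.

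The other cells differed in the same way. Their median score was 4.27, 11.9 and 4.58 in NAint61, NAint113 and NAint191, and 12.9, 18.8 and 4.92 in EU60, EU78 and EU620. The lowest of the 6 limits, that of EU620, was passed by 453 cells (7.49%) of NAint61, 5385 cells (42.9%) of NAint113 and 169 cells (1.69%) of NAint191, and by 4811 cells (48.7%) of EU60, 7547 cells (69.9%) of EU78 and 150 cells (2.61%) of EU620. The median other cell of EU78 therefore scored above the median chosen cell of NAint191 (15.1) and of EU620 (14.7). The highest limit, that of EU78, was reached by 12 cells of NAint113 and 29 of EU60, and by no cell of NAint61, NAint191 or EU620.

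**Figure D1:**
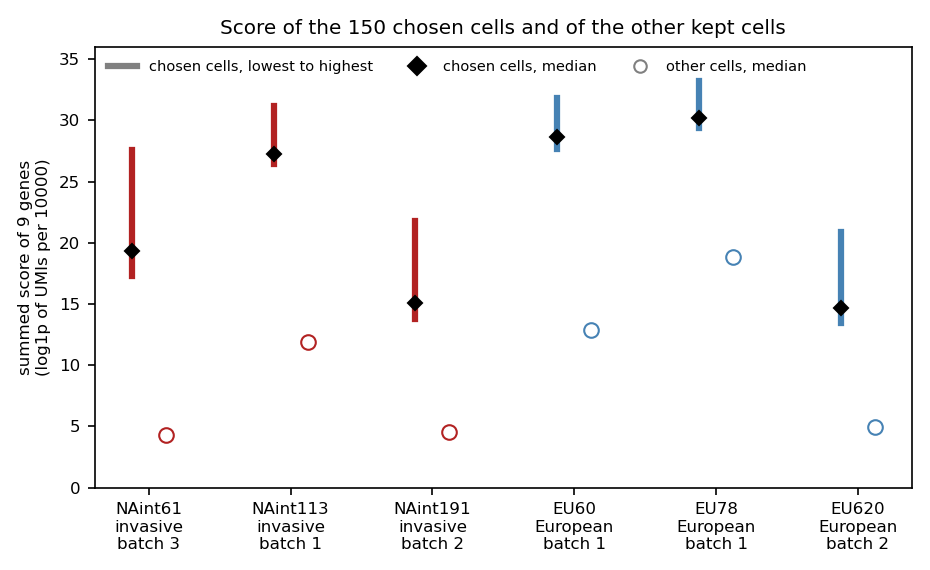
Summed score of the 9 defining genes (y axis, natural-log units) in each library (x axis, with population and batch). Bars run from the lowest to the highest of the 150 chosen cells, diamonds are their medians and open circles are the medians of the other kept cells: chosen cells of NAint113, EU60 and EU78 (batch 1) start at 26.4 or above, those of the other 3 libraries at 17.3 or below.

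Among the 9 defining genes are 2 copies of 4CL2, 1 of C4H, a class III peroxidase, PGD2 (6-phosphogluconate dehydrogenase, which makes NADPH), MYB14 (an R2R3-MYB transcription factor), ACA7 (an alpha carbonic anhydrase), PDE337 and a match to AT5G07475. Their levels are given as CPM, the counts of the summed cells scaled to a common total, and are a description only, since they chose the cells. The 4CL2 copy PaChr5.347 had 447, 2839 and 278 CPM in the chosen cells of NAint61, NAint113 and NAint191, and 2642, 2680 and 358 CPM in those of EU60, EU78 and EU620. In the other cells of the same libraries it had 42.4, 392 and 37.0 CPM in the invasive plants and 449, 676 and 31.1 CPM in the European plants. It was low in the chosen cells of NAint191 and EU620, where it did not reach the level of the other cells of batch 1.

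C4H (PaChr5.903) had 1319, 3974 and 943 CPM in the chosen cells of NAint61, NAint113 and NAint191, and 4278, 4936 and 1145 CPM in those of EU60, EU78 and EU620. The peroxidase gene PaChr9.920 had 3218, 4967 and 1755 CPM in the invasive libraries and 5586, 5368 and 1921 CPM in the European ones. PGD2 (PaChr13.62) had 1175, 2878 and 878 CPM against 2585, 2348 and 662 CPM in the same order. All 3 genes were highest in the 3 libraries of batch 1 and overlapped between the populations.

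MYB14 (PaChr6.1455) had 531, 1845 and 264 CPM in the chosen cells of the invasive libraries and 1565, 1794 and 212 CPM in those of the European libraries. ACA7 (PaChr19.929) had 723, 1577 and 269 CPM in the invasive and 1557, 3681 and 206 CPM in the European chosen cells. The match to AT5G07475 (PaChr19.977) had 717, 540 and 255 CPM in the invasive and 1244, 2410 and 359 CPM in the European chosen cells, and is the exception among the 9 in that NAint61 stood above NAint113. The remaining defining genes, the 4CL2 copy PaChr6.375 and PDE337 (PaChr4.2294), spanned 469 to 2971 CPM and 500.3 to 3295 CPM over the 6 libraries, again with batch 1 on top. At 8 of the 9 genes every library of batch 1 stood above every other library in the chosen cells, as at 14.3% of the 12029 genes with 10 CPM or more.

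**Figure D2:**
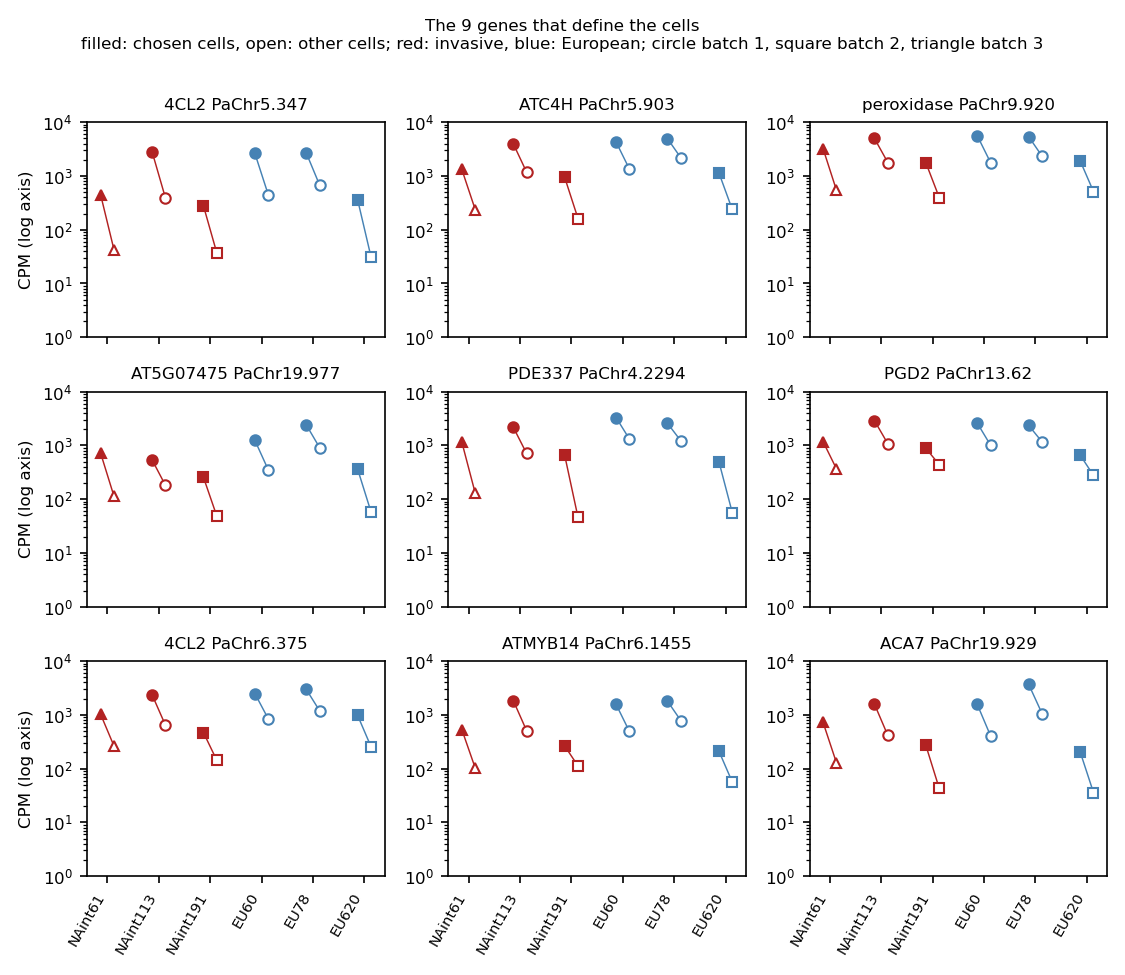
CPM of the 9 defining genes on a log axis, 1 panel per gene, by library, with chosen cells as filled and other cells of the same library as open symbols, joined by a line. The chosen cells stood above the other cells in each library, as the choice required. For the 4CL2 copy PaChr5.347 the chosen cells of NAint191 (278 CPM) lay below the other cells of NAint113 (392 CPM).

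A high sum over 9 genes favours cells that hold most of them, so the counts and shares below are a description and not a finding. The median chosen cell had UMIs of 9 of the 9 genes in 5 libraries and of 8 in EU620, against a median of 4, 7 and 4 genes in the other cells of NAint61, NAint113 and NAint191 and of 7, 8 and 4 in those of EU60, EU78 and EU620. After each cell was thinned to 2000 UMIs, the share of cells with a UMI of the peroxidase gene PaChr9.920 lay between 85.3% and 99.3% of the chosen cells and between 30.0% and 71.6% of the other cells over the 6 libraries (97.3% to 100% and 51.2% to 84.2% before thinning). For ACA7 (PaChr19.929) it lay between 28.0% and 97.3% of the chosen cells and between 5.75% and 57.6% of the other cells (68.7% to 100% and 22.8% to 76.7% before thinning). No cell type in which these genes should be silent was set aside, so how much of the share in the other cells is free RNA was not tested.

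A deeper cell misses fewer of the 9 genes and so tends to score higher, so the choice itself favours cells with more UMIs. How much of the difference below comes from this was not tested. The chosen cells had more UMIs than the rest. Their median was 22027, 11766.5 and 13754 UMIs per cell in NAint61, NAint113 and NAint191, and 13905.5, 12546 and 18410.5 UMIs in EU60, EU78 and EU620, which was 1.28 to 2.01 times the median of the other cells of the same library, with NAint61 at the top. Genes per cell at 2000 UMIs, a measure of how evenly a cell spreads its RNA, went the other way: 1187, 1100 and 1223 genes in the chosen cells of the invasive libraries, and 1152.5, 1144 and 1148 genes in those of the European libraries, each 0.942 to 0.986 times that of the other cells. A doublet of 2 cells would also hold more UMIs. Scrublet's own threshold marked 0 cells in 5 libraries and 1 in EU78, so it did not work as a caller and no cell was removed. The study, with another caller, removed a larger share of cells as doublets from each invasive library than from any European one. The cut used below is the same for all libraries. Of the 150 chosen cells, 7 of NAint61, 0 of NAint113, 4 of NAint191, 0 of EU60, 1 of EU78 and 5 of EU620 lay among the highest 8% of doublet scores of their library. The libraries shared 9 to 39 cell barcodes per pair among kept cells and 0 among chosen cells.

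Neither measure differed between populations beyond the spread of the plants. Median UMIs per chosen cell averaged 15849 ± 5442 in the invasive and 14954 ± 3070 in the European libraries (SD, n = 3 each), which gave p = 0.9 in an exact permutation test, two-sided. Median genes at 2000 UMIs averaged 1170.0 ± 63.2 in the invasive and 1148 ± 4.25 in the European libraries (SD, n = 3 each), which gave p = 0.7 in the same exact test. With 3 against 3 libraries the smallest p this test allows is 0.1. The UMI difference turned round without NAint61 (−2194) or without EU78 (−309), and the gene difference without NAint191 (−4.67).

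The label was checked against the other bundle sheath markers of the study, none of which chose the cells. That list was drawn up by the study on these same samples, so it is not independent evidence. Of its genes, 44 are given for bundle sheath cells and no other type, and all 44 were higher in the chosen cells than in the other cells in 6 of 6 libraries, where 14.5% of the 12029 genes at 10 CPM or more were. The median of their log2 ratios was 1.2, beside −0.29 over all genes. Per cell, the share of UMIs on these 44 genes put the median chosen cell at the 96.9th to 98.5th percentile of its library. Ranked by that share alone, the top 150 cells of a library held 77, 69 and 70 of the chosen cells in NAint61, NAint113 and NAint191, and 46, 52 and 67 in EU60, EU78 and EU620.

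The same cells carried markers of a second type. Protoderm2 is a cluster that the study named for the young outer layer of the shoot. Of the bundle sheath markers 101 are markers of Protoderm2 as well, 8 of the 9 defining genes included. All 93 of the shared genes outside the rule were higher in the chosen cells in 6 of 6 libraries, and so were 120 of the 170 genes given for Protoderm2 alone, with 0 lower in all 6. Of the 150 chosen cells of each library, 133 to 140 passed the 90th percentile of their library for the bundle sheath genes, apart from EU620 with 123. For the Protoderm2 genes, 72, 64 and 100 chosen cells of NAint61, NAint113 and NAint191 passed it, and 51, 26 and 45 of EU60, EU78 and EU620. Cells over both lines numbered 68, 55 and 95 in the invasive and 38, 18 and 42 in the European libraries, and 24 chosen cells of EU620 passed neither. By these lists the chosen cells carried the markers of their label, together with markers of Protoderm2. In NAint191 the genes of Protoderm2 alone were raised more than those of bundle sheath alone (summed CPM over that of the other cells, 2.69 and 2.38). In each other library the bundle sheath genes were raised more. For the genes of differentiating vasculature alone, 75, 49 and 46 chosen cells of NAint61, NAint113 and NAint191 passed the 90th percentile, and 41, 32 and 55 of EU60, EU78 and EU620, which was more than for Protoderm2 in NAint61, EU78 and EU620.

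Markers of several other types were lower. Of the genes given for mesophyll alone, 67 of 82 were lower in the chosen cells in 6 of 6 libraries and 0 were higher (37.7% of all genes were lower). The same held for 28 of 32 genes of ground meristem, 58 of 65 of meristematic cells, 215 of 234 of the G2/M phase, 19 of 22 of Epidermal cell1 and 9 of 11 of chlorenchyma. Epidermal cell2 was near the background share, with 9 of 23 genes lower and 0 higher. Its summed level was above that of the other cells in NAint61 (ratio 1.13) and NAint191 (1.16), and below it in each other library. Vascular lists differed from the lists that were mostly lower. Of 24 genes of differentiating vasculature, 10 were higher in 6 of 6 libraries and 0 lower, where 14.5% of all genes were higher. Of 24 of Phloem2 6 were higher and 3 lower. Of 27 of vascular tissue 5 were higher, near the background share, and 2 lower. The summed level of the vascular tissue list was below that of the other cells in NAint113, EU60 and EU78 (ratios 0.75, 0.81 and 0.82). It was above it in each other library. Xylem and Phloem1 had no larger share of lower genes than the background, with 15 lower and 2 higher of 43 xylem genes (CCoAOMT1, PaChr19.1037, a methyltransferase of lignin synthesis, and PaChr6.671), and 16 lower and 3 higher of 59 Phloem1 genes (PaChr19.371, PaChr20.1219 and PaChr8.57). Genes named here for a small count were picked after their values were seen. No gene of these lists was at 0 in the chosen cells of all 6 libraries, apart from PaChr1.1077 (NACK1, a kinesin of cell division) in the G2/M list.

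**Figure D3:**
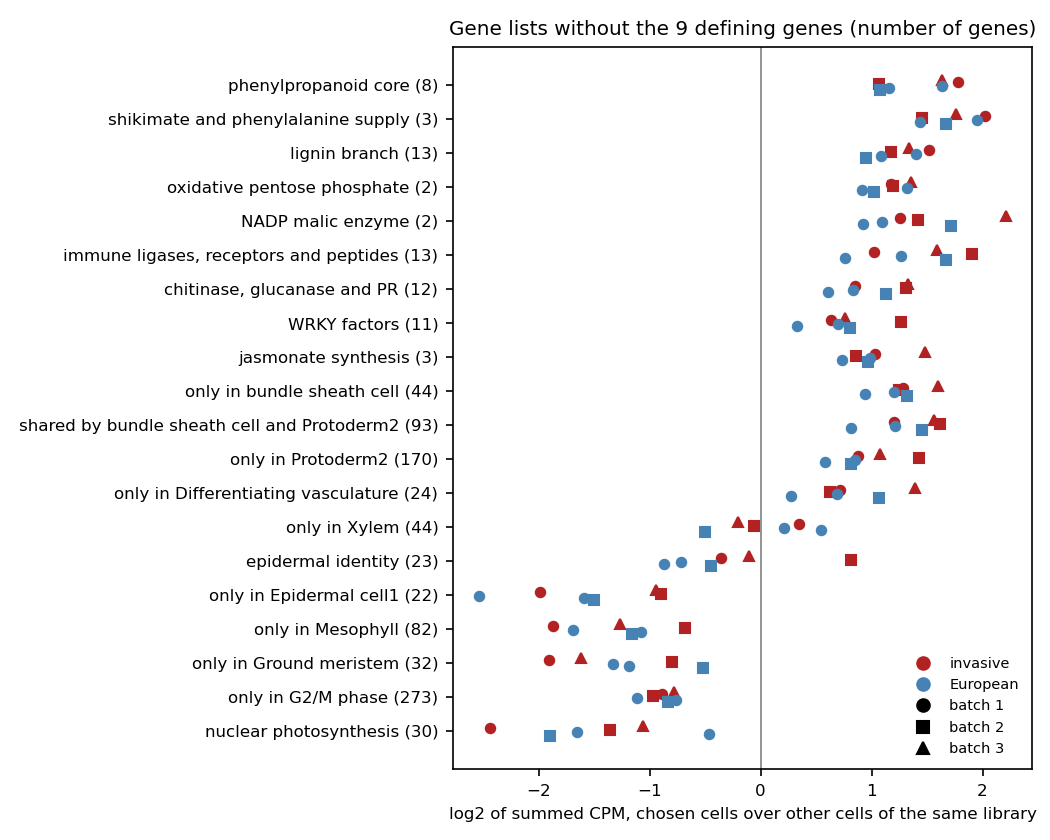
Log2 of the summed CPM of each gene list in the chosen cells over that in the other cells of the same library (x axis), with the 9 defining genes left out, 1 symbol per library. The phenylpropanoid, defence, bundle sheath and Protoderm2 lists lay above 0 in 6 of 6 libraries, and the mesophyll, G2/M and nuclear photosynthesis lists below 0 in 6 of 6.

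Genes of the first steps of the phenylpropanoid pathway were higher in the chosen cells. This list and the pathway and defence lists that follow were drawn from the study's tables of these same samples. Most of their genes, photosynthesis apart, are given there as markers of bundle sheath or Protoderm2. Their direction was thus largely set by the choice of cells and is not independent evidence. The core list holds 11 genes, 3 of them defining genes. Of the other 8 (5 copies of PAL1 and 3 of C4H), 7 were higher in the chosen cells in 6 of 6 libraries, with a median log2 ratio of 1.45. The share of these 8 genes in the UMIs of a cell put the median chosen cell at the 89.0th to 98.5th percentile of its library.

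The PAL1 copy PaChr6.1462 stood furthest out, with 226, 2911 and 211 CPM in the chosen cells of NAint61, NAint113 and NAint191, and 2271, 1768 and 171 CPM in those of EU60, EU78 and EU620. Its other cells had 43.3, 358 and 67.7 CPM in the invasive and 329, 422 and 40.2 CPM in the European libraries, so the log2 ratio ran between 1.63 and 3.02. PaChr6.1460 was more even, at 750, 3079 and 686 CPM in the invasive and 2747, 2778 and 829 CPM in the European chosen cells. Batch 1 was on top for both genes, and the populations overlapped.

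The neighbouring PAL1 gene PaChr6.1459 kept another order. It had 205, 684 and 872 CPM in the chosen cells of NAint61, NAint113 and NAint191, and 845, 1476 and 799 CPM in those of EU60, EU78 and EU620, and in NAint61 it was no higher than in the other cells (208 CPM). It is the member of the core list that missed 6 of 6. PaChr5.1436 spanned 189 to 1184 CPM and PaChr5.1435 81.0 to 314 CPM in the chosen cells over the 6 libraries. Near-identical PAL copies can share reads, so a split of level among them is uncertain.

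Of the C4H copies, PaChr9.592 had 2317, 4863 and 1275 CPM in the chosen cells of NAint61, NAint113 and NAint191, and 4815, 5002 and 1506 CPM in those of EU60, EU78 and EU620. PaChr1.2273 had 332, 1881 and 285 CPM in the invasive and 721, 1713 and 183 CPM in the European chosen cells. PaChr12.625 had 450.3, 978 and 297 CPM in the invasive and 992, 1214 and 259 CPM in the European chosen cells. All 3 were higher in the chosen cells than in the other cells of each library, by log2 ratios of 0.75 to 2.68.

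Genes that supply phenylalanine were higher as well. ADT6 (PaChr7.1348), an arogenate dehydratase that makes phenylalanine, had 231, 460 and 191 CPM in the invasive and 579, 570.3 and 276 CPM in the European chosen cells. CM2 (PaChr14.902), a chorismate mutase, had 92.8, 1125 and 67.5 CPM in the invasive and 524, 836 and 80.7 CPM in the European chosen cells. Both, and PaChr15.1194 of the same list of 3, were higher in the chosen cells in 6 of 6 libraries, with log2 ratios of 0.86 to 3.05.

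The pentose phosphate genes outside the rule followed. G6PD6 (PaChr6.1345), glucose-6-phosphate dehydrogenase, which opens the NADPH-forming branch, had 171, 523 and 137 CPM in the invasive and 492, 561 and 131 CPM in the European chosen cells, with log2 ratios of 1.24 to 1.85. The second PGD2 copy (PaChr1.2873) had 331, 824 and 282 CPM in the invasive and 820, 867 and 242 CPM in the European chosen cells, with ratios of 0.74 to 1.14. Both had batch 1 on top.

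NADP-ME3, an NADP malic enzyme, is a marker that the study names for its bundle sheath, as is PAL1, and neither is among the defining genes. SCL23, which the study also names, had no gene ID in the sources used here and was not examined. NADP-ME3 was present as 2 genes. PaChr12.364 had 1263, 1906 and 244 CPM in the chosen cells of NAint61, NAint113 and NAint191, and 855, 3220 and 331 CPM in those of EU60, EU78 and EU620, against 237, 761 and 129 CPM and 484, 1529 and 93.0 CPM in the other cells. PaChr9.421 had 377, 1516 and 310 CPM in the invasive and 1233, 1082 and 371 CPM in the European chosen cells. Both were higher in the chosen cells in 6 of 6 libraries. Summed, the ratio to the other cells ran between 1.90 and 4.62, highest in NAint61.

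**Figure D4:**
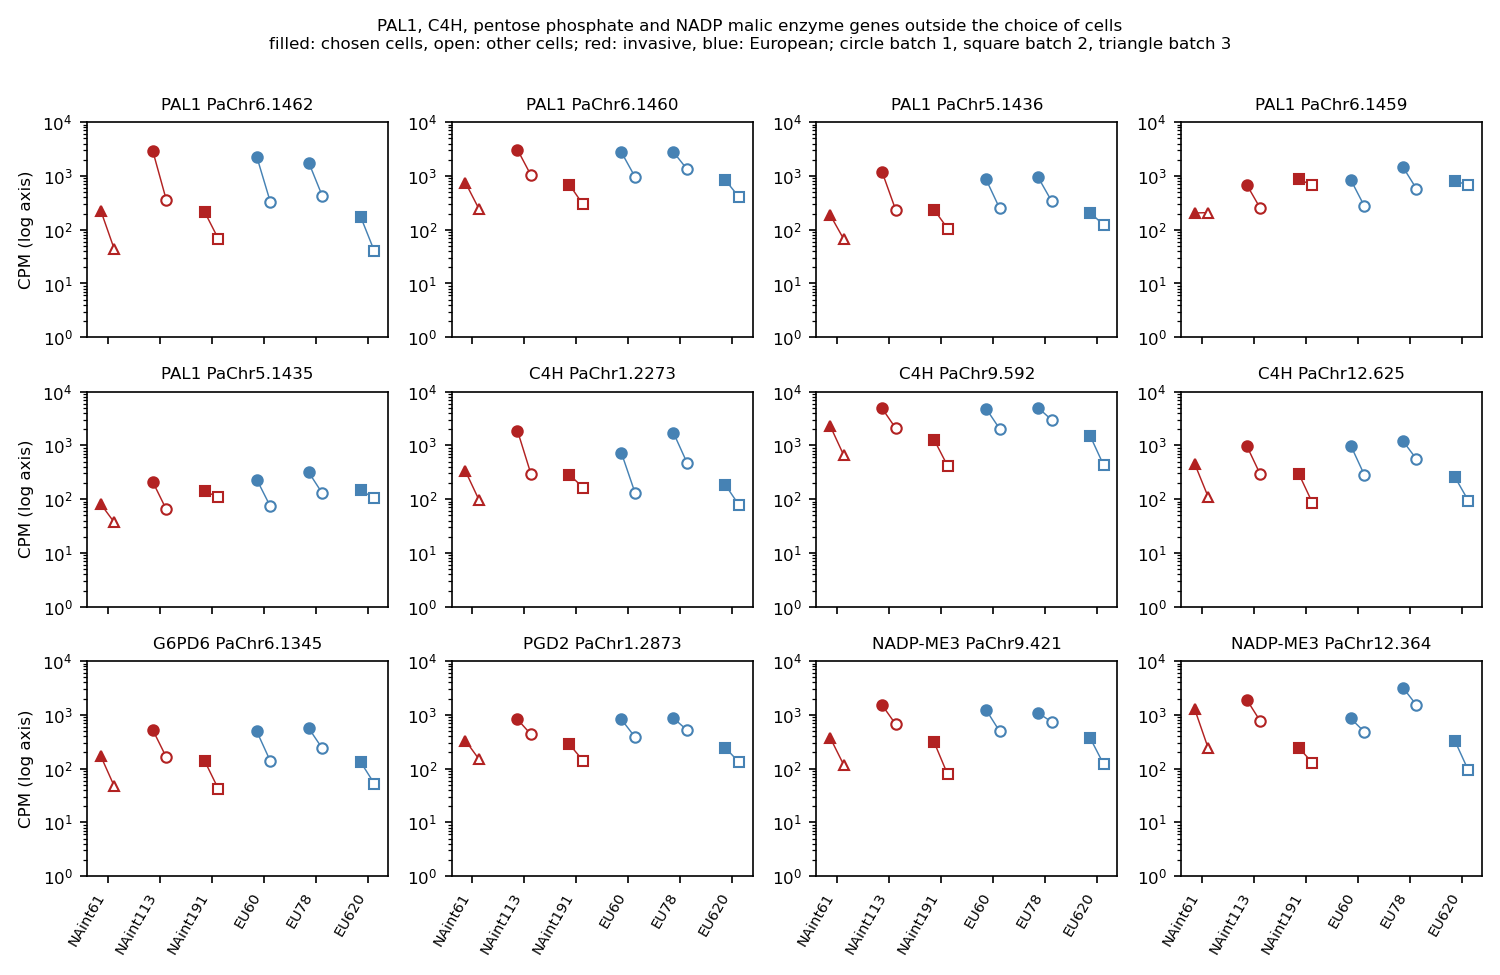
CPM on a log axis of the 5 PAL1, 3 C4H, 2 pentose phosphate and 2 NADP malic enzyme genes outside the rule, by library, in chosen cells (filled) and other cells (open). Filled symbols stood above open ones throughout, apart from the PAL1 gene PaChr6.1459 in NAint61 (205 against 208 CPM).

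Further down the pathway, 8 of 13 lignin genes were higher in the chosen cells in 6 of 6 libraries and 0 lower, with a median log2 ratio of 1.21. HCT, which shuttles coumaroyl groups towards lignin monomers, was higher in 6 of 6 libraries in 3 copies. HCT PaChr7.177 ranked among the top 15 genes outside the rule, with 105, 734 and 276 CPM in the invasive and 800.4, 616 and 57.2 CPM in the European chosen cells. CAD6 (PaChr19.383), an alcohol dehydrogenase of the last step, had 1721, 1558 and 317 CPM in the invasive and 840, 1948 and 264 CPM in the European chosen cells. CCoAOMT1 (PaChr19.1037) had 735, 1234 and 604 CPM in the invasive and 1221, 1088 and 726 CPM in the European chosen cells. The lignin peroxidase PER72 (PaChr1.905) and the dirigent protein DIR21 (PaChr10.969), which guides the coupling of monolignols, spanned 284 to 1596 and 20.9 to 1579 CPM, with the lowest values in EU620 and NAint191.

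Defence genes were higher as a body, but the immune, WRKY and jasmonate genes counted below are all bundle sheath or Protoderm2 markers of the study. Their direction was thus largely set by the choice of cells. Of 13 immune ligases, receptors and peptides, 13 were higher in the chosen cells in 6 of 6 libraries (median log2 ratio 1.43). CMPG1, a U-box ubiquitin ligase induced by elicitors, had 1069, 2554 and 1476 CPM at PaChr4.710 in the invasive and 1819, 2323 and 970.5 CPM in the European chosen cells. The U-box ligase PUB23 (PaChr22.832) had 723, 1761 and 871 CPM in the invasive and 1545, 1010 and 429 CPM in the European chosen cells. PaChr20.919, matched to PIP1, a secreted peptide induced by microbial patterns, had 259, 1500 and 180.3 CPM against 2150, 1212 and 937 CPM in the same order.

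Of 12 chitinases, glucanases and PR genes, 8 were higher in 6 of 6 libraries and 1 lower (a match to the glucanase BG14, PaChr7.1327), and of 11 WRKY transcription factors 9 were higher and 0 lower, with median log2 ratios of 1.00 and 0.97. The class IV chitinase PaChr5.1323 had 4036, 4448 and 1291 CPM in the invasive and 5132, 6777 and 1969 CPM in the European chosen cells. WRKY33 (PaChr12.1164), a regulator of camalexin synthesis in Arabidopsis, had 204, 807 and 208 CPM in the invasive and 488, 624 and 228 CPM in the European chosen cells. The WRKY33 gene PaChr1.2305 had 217 CPM in the chosen and 335 CPM in the other cells of NAint61, and was higher in the chosen cells of the other 5 libraries.

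All 3 jasmonate synthesis genes were higher in 6 of 6 libraries. AOC3 (PaChr3.1622), allene oxide cyclase, had 1930.0, 3175 and 2033 CPM in the invasive and 3813, 4528 and 1849 CPM in the European chosen cells. AOS (PaChr3.2442), allene oxide synthase, came nearest to no difference, with a log2 ratio of 0.06 in NAint191. LOX2 (PaChr14.1176), a lipoxygenase, had log2 ratios of 0.87 to 2.67.

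Photosynthesis genes were lower. Of 29 nuclear photosynthesis genes at 10 CPM or more, 22 were lower in the chosen cells in 6 of 6 libraries and 0 were higher, with a median log2 ratio of −1.39. PSBR (PaChr14.449), a photosystem II subunit, had 129, 2.05 and 96.9 CPM in the chosen cells of NAint61, NAint113 and NAint191, and 8.01, 2.21 and 60.0 CPM in those of EU60, EU78 and EU620. Its other cells had 213, 22.3 and 229 CPM in the invasive and 22.5, 10.3 and 214 CPM in the European libraries. Here batch 1 was at the bottom in both classes of cells.

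The 15 genes outside the rule with the highest smallest-of-6 ratio, among genes averaging 100 CPM or more in the chosen cells, held 6 that the study's tables annotate. Besides the PAL1 gene PaChr6.1462 and HCT PaChr7.177, they were Sgpp (PaChr13.47), a sugar-phosphate phosphatase, with 327, 593 and 192 CPM in the invasive and 555, 404 and 111 CPM in the European chosen cells, PYL11 (PaChr4.1021), an abscisic acid receptor, and matches to AT3G18170 (PaChr13.831) and AT5G17540 (PaChr8.1608). PYL11 had 52.3, 739 and 16.7 CPM in the invasive and 557, 748 and 30.3 CPM in the European chosen cells. The other 9 carry no annotation in the sources used here. PaChr1.83 led the rank, with log2 ratios of 2.56 to 4.06, ahead of PaChr4.401 with 2.43 to 4.08. Since both classes of cells come from the same libraries and the choice was made on the same cells, none of these ratios was tested.

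Batch 1 set the main axis of difference among the chosen cells. The first principal component of their log2 CPM held 59.9% of the variance and placed NAint113 at 59.7, EU60 at 52.4 and EU78 at 58.5, and NAint61 at −23.9, NAint191 at −77.0 and EU620 at −69.7. A comparison of batch 1 with batches 2 and 3, added after the data had been seen and fitted with population as a term, called 598 genes higher (2.91% of 20551 tested) and 802 lower (3.90%), 6.81% in all. A gene was called where edgeR's quasi-likelihood test gave an adjusted p under 0.05 and its log2 fold change was over 1 in size. Of the 93 shared bundle sheath and Protoderm2 genes outside the rule, 59 were higher in batch 1 and 0 lower, and of the 44 genes for bundle sheath alone 20 were higher and 0 lower. So were 6 of 8 phenylpropanoid core genes and 8 of 13 immune genes, while 28 of 30 nuclear photosynthesis genes and 55 of 82 mesophyll genes were lower.

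The calls depended on single libraries. Without NAint113, EU60, EU78 or EU620 in turn, 0 genes were called in either direction, while 1216 were higher and 1574 lower without NAint61, and 297 higher and 486 lower without NAint191. The labels do not say what a batch stands for. The entry score also differs by batch, so the level of a gene in the chosen cells and the strictness of their choice cannot be told apart here. In the other kept cells, which passed no entry score, every batch 1 library stood above every other library at 25.6% of the 12029 genes. In the chosen cells the same share was 14.3%.

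No gene was called between the populations in the chosen cells. The comparison asks which genes differ between invasive and European plants within these cells, with mean reads per cell as the covariate, as the study did. Of 20551 genes tested with edgeR's quasi-likelihood test, 0 (0%) passed an adjusted p under 0.05, the smallest adjusted p being 0.143, while 1968 (9.58%) had an unadjusted p under 0.05. DESeq2 called 235 genes on the same sums, 170 higher and 65 lower in the invasive plants. In the other kept cells edgeR called 7 genes higher (0.0209%) and 1 lower (0.00299%; PaChr15.843, named after its values were seen), 0.0239% of 33424 tested. A count of 0 in 3 against 3 libraries does not show that the populations are alike in these cells. On simulated libraries of this size and design the same fit called none of the genes that had been given a change, large changes included, so the count of 0 carries no information on how many genes differ.

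The lists that mark the chosen cells accordingly gave counts of 0 in each direction. The median log2 fold change of the 8 phenylpropanoid core genes was −1.07 and that of the 44 bundle sheath genes −0.70, beside 0.10 over all genes tested. Levels overlapped: the 3 libraries of the invasive plants lay below the 3 of the European plants for 3.08% of all genes and above them for 3.81%, and for 0 of the 8 core genes in either direction. The fitted values were −1.48 for PAL1 PaChr6.1462 and −0.80 for C4H PaChr9.592. Within batch 1, where NAint113 stands against EU60 and EU78, PAL1 PaChr6.1462 was 0.54 higher in the invasive chosen cells on the log2 scale and C4H PaChr9.592 differed by −0.01. Within batch 2, NAint191 against EU620, the same genes differed by 0.30 and −0.24, so the fitted direction of the PAL1 gene was not that within either batch. Batch 3 holds an invasive library only.

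Relative to the other cells of the same plants, however, the populations differed at some genes. This test asks whether the invasive-minus-European difference in the chosen cells departs from that in the other cells, with the library as a block. It called 164 genes with a larger difference in the chosen cells (0.491% of 33424 tested) and 26 with a smaller one (0.0778%), 0.568% in all (edgeR, adjusted p under 0.05 and absolute log2 over 1). The median over all genes tested was 0.16. With RLE factors in place of TMM the split was 74 and 23. Of the 190 genes, 20 averaged under 10 counts in the chosen cells and 8 were at 0 in all chosen cells of 1 population. Within both batch 1 and batch 2, 118 of the higher and 20 of the lower genes kept their direction. The same libraries made the calls, so this is not independent evidence, and the share over all genes was not computed.

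Of the 164 higher genes, 53 are annotated in the study's tables, and 40 of these are markers of an epidermal or protoderm cluster. Of the 23 genes of epidermal identity, cuticle enzymes, lipid transfer proteins and factors of the outer cell layer, 12 were called higher and 0 lower, with a median of 1.48. These lists too come from the study's tables of these samples, so they are not independent evidence. Within the chosen cells themselves, only the LACS4 genes PaChr13.234 and PaChr2.1590 of this list stood above the other cells in 6 of 6 libraries, and PDF1 (PaChr1.150 and PaChr2.689) and FDH (PaChr4.433) below them in 6 of 6. The same was found for 7 of 22 genes of Epidermal cell1, 7 of 23 of Epidermal cell2 and 7 of 170 of Protoderm2, against 1 of 44 of bundle sheath (PRN2, PaChr19.648, named after its values were seen) and 0 of the 8 phenylpropanoid core genes. Over all markers of an epidermal or protoderm cluster, 40 of 362 (11%) were called higher, against 1.55% of the tested markers of other clusters alone.

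KCS12 (PaChr5.2239), an elongase of the kind that builds cuticular wax, had 124, 154 and 507 CPM in the chosen cells of NAint61, NAint113 and NAint191, and 155, 89.3 and 235 CPM in those of EU60, EU78 and EU620. Set against the other cells its log2 ratio was 1.83, 0.05 and 2.57 in the invasive and −0.06, −0.72 and 0.23 in the European libraries, a difference of 1.89 ± 0.37 (approximate SE; edgeR adjusted p = 0.00218). LTP1 (PaChr22.1061), a lipid transfer protein, had log2 ratios of 1.06, −0.79 and 1.35 in the invasive and −1.61, −1.82 and −0.24 in the European libraries, a difference of 2.14 ± 0.34 (edgeR adjusted p = 1.5e-04). NAint61 and NAint191 were high in both, while NAint113 lay within the range of the European libraries. Within batch 1 the differences were 0.44 for KCS12 and 0.92 for LTP1, and within batch 2 they were 2.34 and 1.59. KCS1 (PaChr3.786), another elongase, differed by 1.48 ± 0.34 (edgeR adjusted p = 0.0198), and NAint113 again lay within the European range. PDF1 (PaChr8.1038), a proline-rich protein of the outermost cell layer, was the remaining gene of the 4 highest in this list, with log2 ratios of −3.92, −0.90 and 0.01 in NAint61, NAint113 and NAint191, and −2.70, −3.03 and −0.53 in EU60, EU78 and EU620. Here NAint61 was the lowest of the 6 libraries, unlike in KCS12 and LTP1.

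By library, the median gene of epidermal identity stood at 0.45, −0.85 and 1.08 (log2, chosen over other cells) in NAint61, NAint113 and NAint191, and at −1.33, −1.25 and −0.32 in EU60, EU78 and EU620. In summed CPM this list was higher in the chosen cells of NAint191 alone (ratio 1.76), with 0.93 in NAint61. Of its 22 genes at 10 CPM or more, 2 (9.09%) had all invasive ratios above all European ones, against 4.18% of all genes. The median gene of bundle sheath alone stood at 1.50, 1.13 and 1.19 in the invasive and 1.13, 0.81 and 1.25 in the European libraries. NAint61 and NAint191 thus had the highest medians for epidermal identity, whereas for bundle sheath alone EU620 stood above NAint191. NAint61, NAint191 and EU620 are the libraries with the lowest entry score, and the part of that score in the epidermal values was not tested beyond the common limit given below. The study's doublet share was higher in the invasive libraries. The part of doublets in the epidermal values was not tested beyond leaving out the highest doublet scores. In sums over cells, more cells with epidermal RNA and more such RNA per cell cannot be told apart.

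**Figure D5:**
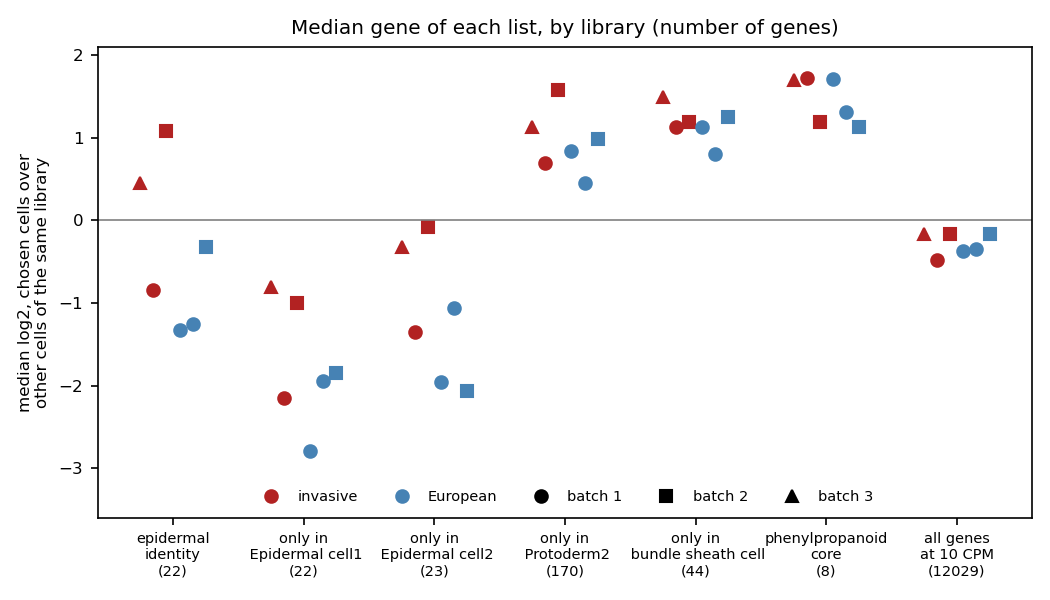
Median over the genes of each list of the log2 ratio, chosen cells over other cells of the same library (y axis), 1 symbol per library. For epidermal identity NAint61 (0.45) and NAint191 (1.08) lay above 0 and the other 4 libraries below, while bundle sheath genes lay between 0.81 and 1.50 in all 6. In summed CPM the epidermal identity list was lower in the chosen cells of NAint61 (ratio 0.93).

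By the rule on size, annotation and non-overlap, 3 higher and 2 lower genes of this test are named. SVB2 (PaChr23.727), given for Epidermal cell1, had log2 ratios of −1.44, −2.19 and −0.78 in the invasive and −3.89, −3.53 and −2.53 in the European libraries, a difference of 2.66 ± 0.49 (edgeR adjusted p = 9.3e-04). AGP15 (PaChr1.2007), an arabinogalactan protein, differed by 2.44 ± 0.44 (edgeR adjusted p = 7.4e-04) and HSD1 (PaChr21.654), a hydroxysteroid dehydrogenase of lipid bodies, by 2.25 ± 0.52 (edgeR adjusted p = 0.0189). All 3 were below the other cells in 6 of 6 libraries, less so in the invasive plants. Their counts in the chosen cells were low in several libraries. In NAint61, NAint113 and NAint191, then EU60, EU78 and EU620, SVB2 had 103, 11 and 178, then 2, 3 and 66. In the same order AGP15 had 242, 7 and 23, then 11, 4 and 9, and HSD1 had 117, 5 and 49, then 5, 2 and 19. AGP15 lost its call without EU620, and HSD1 without NAint61, EU60, EU78 or EU620, with differences of 1.33 (without EU620) to 2.92 (without EU60).

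On the lower side, CML24 (PaChr20.653), a calmodulin-like calcium sensor given for Phloem2, had 8, 0 and 0 counts in the chosen cells of NAint61, NAint113 and NAint191, and 27, 9 and 102 counts in those of EU60, EU78 and EU620. Its log2 ratios were −1.84, −2.70 and −1.75 in the invasive and −0.55, −0.51 and 3.05 in the European libraries, a fitted difference of −3.58 ± 0.61 (edgeR adjusted p = 4.2e-04). Leaving out each library gave −10.39 to −3.41, with −10.39 without NAint61 and −6.76 without EU620. MAPKKK16 (PaChr2.1662), a kinase, had 66.1, 81.1 and 128 CPM in the invasive and 140.3, 110 and 433 CPM in the European chosen cells, a difference of −1.32 ± 0.32 (edgeR adjusted p = 0.0321), a call that was lost without NAint61, EU60, EU78 or EU620. The largest fitted values of all belonged to genes almost without counts: PaChr5.421 had 13 counts and PaChr8.73 had 75, each in the chosen cells of NAint61 and 0 in the other 5 libraries, and PaChr25.315 had 6 in EU78 and PaChr1.1334 had 38 in EU78 and 3 in EU60, with 0 elsewhere. Their fitted folds are no bound on a change.

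The calls of this test depended on how the cells were taken. With all cells over the common score limit, 0 genes were called by edgeR (2080 at an unadjusted p under 0.05), with 300 cells per library 33, with DESeq2 27 and without the covariate 1. Without EU60 it was 98 and without EU620 it was 103, and 278 without NAint61.

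In the frozen section of NAint61, which was never digested, the 9 defining genes were also detected, each in 201 to 11737 counts. Set side by side with all kept cells of the NAint61 single-cell library, a single library against a single section on another platform, they summed to 2256 CPM in the cells and 757 CPM in the section. Genes differed widely in this. The peroxidase gene PaChr9.920 had 650 CPM in the cells and 32.4 CPM in the section, MYB14 (PaChr6.1455) 119 and 4.62 CPM, and PDE337 (PaChr4.2294) 170 and 4.85 CPM, the last from 211 counts (exact Poisson interval 4.22 to 5.55 CPM at 95%, counting error only). The 4CL2 copy PaChr5.347 had 58.2 and 72.6 CPM, and the match to AT5G07475 137 and 156 CPM, so these 2 were not lower in the section.

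The lists were as uneven. The 93 genes shared with Protoderm2 summed to 19750 CPM in the cells and 3799 CPM in the section, the 44 of bundle sheath alone to 4910 and 2239 CPM, and the 8 phenylpropanoid core genes to 1586 and 3539 CPM. The last sum was set by the PAL1 gene PaChr6.1459, with 208 CPM in the cells and 2189.5 CPM in the section. All 5 PAL1 copies were higher in the section and all 3 C4H copies higher in the cells. Platform, tissue cut and digestion differ together between these measurements and cannot be told apart.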

How the data were processed

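Single-cell RNA of 6 reed shoots and 1 frozen bud section was analysed from the deposited raw UMI counts per gene and cell, which the authors made with Cell Ranger (version 8.0 in the submitters' processing notes, which also name Scanpy). Reads of near-identical gene copies may be split among them. The counts of 42095 genes were summed per library over the chosen and over the other kept cells. Levels are CPM of these sums, with a pseudocount of 1 CPM in log2 ratios, and are not per gene length, so genes are not compared with each other. The libraries held 95335255 to 132478792 UMIs, and counting intervals cover counting error only.

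Populations were compared with edgeR 4.0.16 (R 4.3.3; TMM, quasi-likelihood, Benjamini-Hochberg adjustment; genes with 10 counts in at least 1 library; mean reads per cell, as the study gives it for each library, as covariate), and the difference between cell classes with the library as a block. SEs are the log2 value over the square root of F. Single values were compared with exact permutation tests (scipy 1.17.1), and doublets scored with Scrublet in scanpy 1.11.5. DESeq2 1.42.0, RLE factors, other filters, cell numbers and terms, and leaving out each library were alternatives. The code was tested on simulated data, where the population comparison called none of the changed genes and the difference between classes called most of the strongly changed and a few unchanged genes. The members and gene lists were chosen with earlier results of these data known, and the lists come from 1350 genes annotated in the study's tables, all found in the matrices.

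Named genes are the 9 defining genes, up to 4 of each list with the highest mean CPM, all copies of PAL, C4H, 4CL, NADP-ME3 and the pentose phosphate genes, the 15 with the highest smallest-of-6 ratio at 100 CPM or more, and, of the population comparison, 5 annotated and non-overlapping calls and 2 of any annotation in each direction (3 and 2 of the difference between classes). Other names are said to be chosen after their values were seen. The positions of spots in the section were not used here.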

Additional observations from a re-analysis of the deposited data

Results flagged for a closer look

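The population effect in the chosen cells differed from that in the other cells of the same plants at 190 genes by the test of that difference itself (edgeR, adjusted p under 0.05 and absolute log2 over 1). The named genes among them were SVB2 (PaChr23.727), with a difference of 2.66 on the log2 scale, AGP15 (PaChr1.2007) with 2.44, HSD1 (PaChr21.654) with 2.25, MAPKKK16 (PaChr2.1662) with −1.32 and CML24 (PaChr20.653) with −3.58. The log2 ratios of the 3 invasive and the 3 European libraries did not overlap at 53 of the 190 genes. This was a condition for naming the 5 genes, so it is not further evidence for them. For SVB2, AGP15, HSD1 and CML24 some of these ratios rest on few or no counts in the chosen cells, as given above. The count was 0 where all cells over a common score limit were taken, and 1 without the covariate. With 3 libraries per population, no search for a single library far from the others of its population was made.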

How the results depend on the processing

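For the population comparison in the chosen cells, 0 genes were called by edgeR, against 235 with DESeq2, 9 with no filter on low counts and 1 with the common score limit. It gave 0 under each of the other alternatives, leaving out each library included. For the difference between cell classes, 190 genes were called, against 27 with DESeq2, 97 with RLE factors, 1 without the covariate, 107 at an absolute log2 over 2, 33 with 300 cells and 0 with the common limit. Leaving out each library gave 98 to 278. Similar counts did not mean the same genes: the batch label gave 146 calls, 45 of them among the 190, and the term for batch 1, added after the data were seen, gave 163, of which 53 were. RLE factors moved the median of this test by −0.09 and that of the population comparison by 0.01. The cause of these changes was not tested.

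Without each library in turn, the difference in median genes at 2000 UMIs ranged from −4.67 to 56.8 and that in median UMIs from −2194 to 2936.5. Of the genes with almost no counts, PaChr8.73 turned to −0.75 with the batch label and PaChr1.1334 to 1.25 with 300 cells. Leaving out libraries gave −3.98 to 30.30 for PaChr8.73, −27.92 to 10.78 for PaChr1.1334, −37.75 to 13.16 for PaChr25.315 and −4.64 to 34.14 for PaChr5.421. Of the recomputed levels of genes and lists, 315 moved by less than the spread between libraries and 9 moved by more. None whose main value exceeded that spread changed sign, and sign changes of smaller values were not counted.

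With the replicate number as a block the population comparison called 0 genes with the covariate and 0 without it, and the paired differences were 21.8 genes (exact p = 0.75) and 895 UMIs (exact p = 1). The numbers do not pair the samples: same-numbered libraries correlated at −0.10, 0.55 and 0.69 over 6855 genes, and NAint113 correlated best with EU60 (0.57).

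Depth limits the genes with few counts, 3 libraries per population limit every test, and batch 3 holds 1 library, so its batch and plant cannot be told apart.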

Other observations

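The 15 genes with the most negative highest-of-6 ratio held 3 of the XTH family, picked here after their values were seen. Beside them were markers of meristematic cells (a histone gene among them), the G2/M phase, xylem and mesophyll, and genes with no annotation. XTH22, a xyloglucan endotransglucosylase that remodels growing walls and responds to touch in Arabidopsis, was present in 2 copies. PaChr8.1530 had 42.4, 20.5 and 195 CPM in the chosen cells of NAint61, NAint113 and NAint191, and 7.24, 3.98 and 113 CPM in those of EU60, EU78 and EU620, against 573, 211 and 659 CPM and 103, 66.8 and 375 CPM in the other cells. PaChr13.1463 had log2 ratios of −3.66, −3.26 and −1.68 in the invasive and −3.81, −3.50 and −2.21 in the European libraries. XTH25 (PaChr13.1466), of the same family, had ratios of −1.95, −3.55 and −1.60 in the invasive and −4.61, −4.65 and −2.18 in the European libraries. All 3 were lower in the chosen cells in 6 of 6 libraries. These ratios come from the cells on which the choice was made and were not tested.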
